A study of Mus musculus with 12 samples.

Results

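Collagens are the triple-helical proteins of the extracellular matrix, and the genes described here are the rows of a mouse liver expression table whose symbol has the form Col, digits, a, digits. There were 43 such genes among the 16970 in the table. Of these, 18 reached 1 FPKM (fragments per kilobase of gene model, scaled to the sequencing depth) in at least 3 of the 12 libraries and were tested. The other 25 did not, and are given by their levels. The members are every row with such a symbol; the rule uses no measured value.

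Each collagen chain is made as a procollagen in the endoplasmic reticulum, where prolines and lysines are hydroxylated and 3 chains fold into a helix. Fibrillar procollagens are then cut at both ends outside the cell and crosslinked by lysyl oxidases. In injured liver, hepatic stellate cells and portal fibroblasts that have become myofibroblasts are the main source of types I and III, the collagens that make up most of a fibrous scar. Types IV, XV and XVIII belong to basement membranes, type VI forms beaded microfilaments, and types XIV and XVI bind to the surface of fibrils. Type XVIII differs from the rest in the liver, where hepatocytes make much of it.

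The libraries are polyA RNA of whole mouse liver in 4 groups of 3, named here by their titles. BDL is liver after 7 days of bile duct ligation, surgery that blocks the outflow of bile, and BDL_H is the same with HDCA at 100 mg/kg for 4 days, begun 3 days after surgery. HDCA is hyodeoxycholic acid, a bile acid. MDR was taken as the Abcb4-/- mice of the series description, aged 60 days, and MDR_H as those given HDCA at 100 mg/kg for 21 days; the library labels themselves do not mention Abcb4. Both models are cholestatic, and no liver of an unoperated or wild-type mouse was analysed here. The 4 groups therefore show collagen levels of one injured liver against another, with no healthy reference. Strain, sex, cage and dosing vehicle are not in the labels used here, and they do not say whether each replicate was another animal. The p-values therefore rest on library-to-library spread, some of which may be technical.

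The libraries held 34260782 to 40427855 reads assigned to genes, recovered from the steps of the FPKM values. Abcb4, the hepatocyte phosphatidylcholine floppase on chromosome 5 (8893717 to 8959231, GRCm38), stood at 52.8, 152 and 168 FPKM in BDL, 160.5, 72.1 and 178 in BDL_H, 181, 150.1 and 162 in the libraries titled MDR and 165, 155 and 129 in those titled MDR_H. The gene was thus not lower in the libraries titled MDR (difference from BDL 0.56 ± 0.41 on the log2(FPKM + 1) scale, SE, limma, adjusted p = 0.339). The sources used here do not say which stretch of the gene the allele removes, so a level over the whole gene model cannot check the label, and every direction below is that of the titles. Summed FPKM of 4 Y-linked genes was 16.1 to 20.1 in the 6 ligation libraries and MDR replicate 1 and at most 0.0160 in the other 5 MDR and MDR_H libraries. The models thus differ in this respect as well as in the injury, and the 2 cannot be told apart. Leaving out MDR replicate 1 does not separate them, because the Y-linked sum then follows the model fully. BDL replicate 1 stood apart from the other ligation libraries and had the lowest level of the 6 for 46.4% of the genes tested. Its summed FPKM of 12 endothelial markers was 37.9, against 113 to 172 in the other 5, and of 11 stellate cell markers 34.1, against 60.6 to 87.3. Results that rest on it are given with and without it.

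The windows around start sites are shown for 5 genes of the results below: Col1a2 and Col3a1, whose ratios to Col1a1 differed between the models, Col4a2, which shares a start region with Col4a1, Col6a5, which had the largest ratio of group means between MDR and BDL among the genes tested, and Col18a1, the most abundant. They are RefSeq sequences of GRCm38.p6, from 250 bases before a start site to 50 after it, 5′ to 3′ on the strand of the gene. Capitals mark every match on either strand to the CCAAT box, to the GC box (GGGCGG) or to the TATA box (TATAAA); matches may share bases with one another, and each was counted.
Col1a2, chr6:4505368-4505667, plus strand: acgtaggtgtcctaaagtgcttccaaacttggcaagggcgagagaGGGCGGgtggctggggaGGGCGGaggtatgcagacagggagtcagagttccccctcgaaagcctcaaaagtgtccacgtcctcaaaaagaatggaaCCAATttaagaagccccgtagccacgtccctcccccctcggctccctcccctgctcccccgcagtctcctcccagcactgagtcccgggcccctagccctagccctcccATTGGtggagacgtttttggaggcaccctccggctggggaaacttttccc
Col3a1, chr1:45311288-45311587, plus strand: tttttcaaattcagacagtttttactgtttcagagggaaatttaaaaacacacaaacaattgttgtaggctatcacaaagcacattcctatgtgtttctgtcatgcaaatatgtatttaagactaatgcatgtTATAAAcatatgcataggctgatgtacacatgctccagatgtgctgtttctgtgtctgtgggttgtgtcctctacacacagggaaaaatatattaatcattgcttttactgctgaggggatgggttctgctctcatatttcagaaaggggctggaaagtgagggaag
Col4a2, chr8:11312555-11312854, plus strand: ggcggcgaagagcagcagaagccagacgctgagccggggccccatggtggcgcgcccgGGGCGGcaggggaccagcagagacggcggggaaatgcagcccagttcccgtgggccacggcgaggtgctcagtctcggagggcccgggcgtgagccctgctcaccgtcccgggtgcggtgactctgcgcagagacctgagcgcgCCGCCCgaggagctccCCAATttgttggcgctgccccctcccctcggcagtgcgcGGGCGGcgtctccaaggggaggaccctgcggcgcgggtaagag
Col6a5, chr9:105960594-105960893, minus strand: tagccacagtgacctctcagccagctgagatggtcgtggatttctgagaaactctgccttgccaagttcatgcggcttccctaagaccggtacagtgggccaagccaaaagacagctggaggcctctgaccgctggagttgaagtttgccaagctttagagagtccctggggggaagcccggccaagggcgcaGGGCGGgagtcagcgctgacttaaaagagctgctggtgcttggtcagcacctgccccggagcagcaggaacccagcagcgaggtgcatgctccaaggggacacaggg
Col18a1, start in front, chr10:77166481-77166780, minus strand: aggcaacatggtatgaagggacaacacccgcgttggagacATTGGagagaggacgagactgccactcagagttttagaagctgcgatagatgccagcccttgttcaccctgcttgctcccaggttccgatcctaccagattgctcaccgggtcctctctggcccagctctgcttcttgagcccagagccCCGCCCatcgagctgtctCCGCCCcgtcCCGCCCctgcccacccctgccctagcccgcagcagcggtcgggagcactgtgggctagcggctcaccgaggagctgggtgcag
Col18a1, start further in, chr10:77113656-77113955, minus strand: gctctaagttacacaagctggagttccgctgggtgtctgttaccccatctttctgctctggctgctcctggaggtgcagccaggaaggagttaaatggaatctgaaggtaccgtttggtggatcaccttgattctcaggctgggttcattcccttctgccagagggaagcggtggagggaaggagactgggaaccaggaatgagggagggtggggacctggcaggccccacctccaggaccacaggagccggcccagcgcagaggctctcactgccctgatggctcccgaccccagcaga

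The Col1a2 window held CCAAT 2 times and GGGCGG 2 times, the Col3a1 window held 1 TATAAA and neither of the others, and the Col6a5 window held 1 GGGCGG. The Col4a2 window held 1 CCAAT and 3 GGGCGG. Its last 78 bases are also the last 78 bases of the window of Col4a1, read on the other strand, because the start sites of these 2 genes lie 21 bases apart and the genes are read in opposite directions. Col18a1 has 2 annotated starts 52825 bases apart: the one in front held 1 CCAAT and 3 GGGCGG, and the one further in held none of the motifs. The deposited value is 1 per gene, so transcripts from the 2 starts are summed in it. Over the 38 windows found for 35 of the 43 collagen genes, CCAAT was in 13, GGGCGG in 23 and TATAAA in 5; over all 32851 windows of the table the shares were 37.4%, 35.7% and 13.6%. These matches describe the letters only.

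Col18a1 was the collagen gene with the highest level in every library. It stood at 171, 122 and 125 FPKM in BDL, 133, 127 and 131 in BDL_H, 146, 135 and 141 in MDR and 118, 143 and 147 in MDR_H. The 4 groups overlapped, and BDL replicate 1, the lowest library for most other collagen genes, was the highest for this one. Col18a1 alone made up 33.8% to 78.3% of the summed FPKM of all collagen genes. Without it, the collagen sum was 47.4, 87.7 and 105 FPKM in BDL, 129, 88.5 and 200 in BDL_H, 151, 265 and 229 in MDR and 110.0, 229.5 and 169 in MDR_H. The lowest MDR library thus lay above the highest BDL library in this sum, and the treated groups overlapped each other. Col1a1, Col1a2 and Col3a1 together supplied 42.8% to 55.5% of it. Sums of FPKM are used to describe composition and were not tested.

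**Figure D1:**
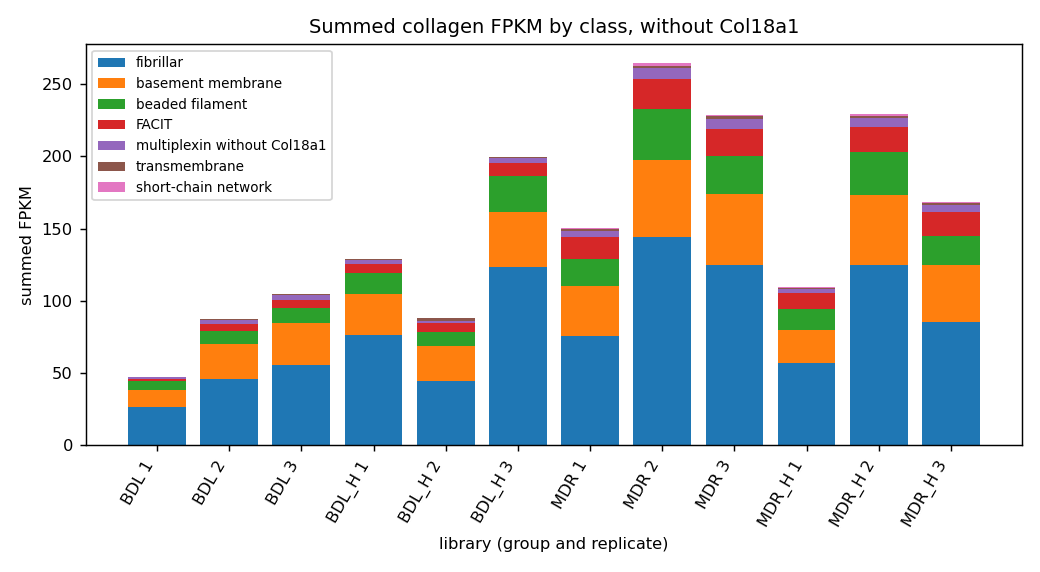
Summed FPKM of the collagen genes in each of the 12 libraries, stacked by structural class, with Col18a1 left out because its own level (118 to 171 FPKM) is as high as many of the sums. The fibrillar class is the largest share of every bar, and the sums run from 47.4 FPKM in BDL replicate 1 to 265 in MDR replicate 2.

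By class, 6 of 11 fibrillar genes passed the filter, 3 of 6 basement membrane genes, 4 of 6 beaded filament genes, 2 of 9 fibril-associated genes (FACITs), both multiplexins and 1 of 4 transmembrane collagens. None of the 3 short-chain network genes did, nor did Col7a1, the anchoring fibril collagen, or Col28a1. Among the 18 tested, 8 had a mean of at least 5 FPKM: Col1a1, Col1a2, Col3a1, Col4a1, Col4a2, Col6a1, Col14a1 and Col18a1. The filter was reached unevenly. Col4a5, Col6a5, Col13a1 and Col16a1 had fewer than 3 ligation libraries at 1 FPKM and passed through the MDR and MDR_H libraries, while no gene passed with fewer than 3 of those. A difference between models in these 4 is therefore partly built into their passing, and counts are also given for the 14 genes that passed in each model by itself.

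**Figure D2:**
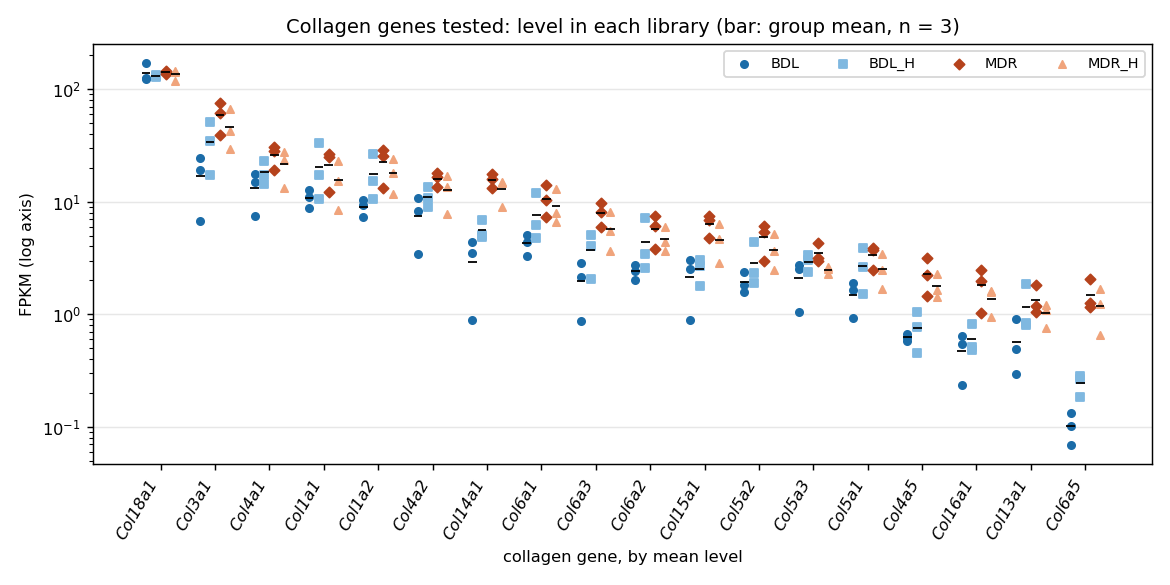
Level of each of the 18 tested collagen genes in every library (FPKM, log axis), ordered by the mean over 12 libraries; symbols are libraries and short bars are group means (n = 3). The MDR libraries lie above the BDL libraries for 16 of the 18 genes, and the exceptions are Col18a1 and Col1a1.

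Liver of the MDR group held more mRNA of most tested collagen genes than liver of the BDL group. All 18 had a positive difference in FPKM (17 with median-of-ratios scaling, where Col18a1 is negative) and 12 passed the test, all higher, against 15.1% of the 10805 genes tested that were called higher. Their median difference was 0.98 on the log2(FPKM + 1) scale, beside 0.25 over all genes tested. Groups did not overlap, MDR above BDL, in 16 of the 18, where 39.2% of genes tested showed the same, and in 26 of all 43, beside 34.4% of the genes in the table. Of the 14 genes that passed the filter in each model, 9 were called higher, beside 12.6% of 9898 such genes. Scaling moves these counts: FPKM divides by a library's total, and with median-of-ratios scaling the median of all genes shifts from 0.25 to −0.05, the split of all calls from 1630 higher and 116 lower to 640 and 486, and the collagen calls from 12 to 7, with Col18a1 turning to −0.34. In whole liver, more cells of a type and more RNA per cell cannot be told apart. Marker sums moved with these differences: the 11 stellate cell markers summed to 34.1 to 76.5 FPKM in BDL and 145 to 203 in MDR, with 10 called higher, the 12 endothelial markers to 37.9 to 168 and 190.5 to 243, with 7 called higher, and the 9 cholangiocyte markers to 128 to 416 and 350 to 545, with 6 called higher. Of the other lists, 4 of 8 portal fibroblast and mesothelial markers were called higher. So were 1 of 4 myofibroblast and smooth muscle markers and 1 of 10 macrophage markers. In the portal fibroblast and mesothelial list 6 were higher and 2 lower in MDR. The 2, Msln (1.40 ± 0.46 to 0.945 ± 0.358 FPKM, SD, n = 3) and Upk3b (1.29 ± 0.55 to 0.923 ± 0.544), were not called. The 9 hepatocyte markers summed to 50984 to 58107 in BDL and 37227 to 44723 in MDR. Of these, 5 were higher and 4 lower in MDR (median difference 0.05), and 1, Apoa1, was called lower. No list had a gene at 0 in every library, and the part of these cells in the collagen differences was not tested.

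Among fibrillar genes, Col3a1, whose product is the only chain of type III collagen, stood at 6.71, 19.1 and 24.5 FPKM in BDL and 39.2, 74.9 and 61.3 in MDR. With HDCA it stood at 34.6, 17.4 and 50.7 in BDL_H and 29.5, 66.1 and 42.8 in MDR_H. The untreated groups did not overlap and the treated groups did. Col3a1 was higher in MDR by 1.86 ± 0.49 (log2, SE, limma, adjusted p = 0.0278), and this call was lost without BDL replicate 1, BDL replicate 2, MDR replicate 2 or MDR replicate 3.

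Col1a2, the α2 chain of type I collagen, stood at 7.28, 9.31 and 10.4 FPKM in BDL and 13.2, 29.0 and 25.7 in MDR. The treated libraries were at 15.3, 10.5 and 26.8 in BDL_H and 11.7, 23.9 and 17.99 in MDR_H. Its partner Col1a1, the α1 chain, stood at 8.85, 11.1 and 12.8 in BDL, 17.3, 10.7 and 33.4 in BDL_H, 12.2, 26.5 and 24.8 in MDR and 8.52, 23.1 and 15.3 in MDR_H. MDR replicate 1 lay inside the BDL range for Col1a1 and above it for Col1a2. The difference between MDR and BDL was 1.18 ± 0.36 for Col1a2 (adjusted p = 0.0471 by limma) and 0.84 ± 0.43 for Col1a1, which did not pass (adjusted p = 0.185). The Col1a2 call did not hold under median-of-ratios scaling (adjusted p = 0.109). It held in 4 of the 12 fits that left out 1 library, and was lost without BDL replicate 1, among others.

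Type V collagen sits inside type I fibrils and helps set their diameter. Its Col5a2 chain stood at 1.58, 1.83 and 2.35 FPKM in BDL, 2.34, 1.89 and 4.35 in BDL_H, 2.99, 6.09 and 5.36 in MDR and 2.46, 5.15 and 3.63 in MDR_H. MDR was above BDL in every library, with a difference of 0.96 ± 0.28 (limma, adjusted p = 0.0424, and 0.0984 with median-of-ratios scaling). The Col5a2 call held in 6 of the 12 fits that left out 1 library, and was lost without BDL replicate 1, among others. Col5a1 (0.81 ± 0.27, adjusted p = 0.0574) and Col5a3 (0.57 ± 0.21, adjusted p = 0.0864) had positive differences that did not pass limma's test. Col3a1 and Col5a2 are neighbours on chromosome 1, 24.6 kb apart.

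In basement membranes, the most abundant network is built from Col4a1 and Col4a2, the pair with the shared start region shown above. Col4a1 stood at 7.47, 15.0 and 17.5 FPKM in BDL, 17.1, 14.4 and 23.2 in BDL_H, 19.3, 30.6 and 28.4 in MDR and 13.2, 27.7 and 23.5 in MDR_H. Col4a2 stood at 3.45, 8.30 and 10.8 in BDL, 10.9, 8.97 and 13.5 in BDL_H, 13.5, 17.99 and 16.6 in MDR and 7.71, 17.1 and 13.4 in MDR_H. In both genes BDL replicate 1 was the lowest of the 12 libraries and MDR replicate 2 the highest. The MDR difference was 1.10 ± 0.34 for Col4a2 (limma, adjusted p = 0.0498) and 0.97 ± 0.33 for Col4a1 (adjusted p = 0.0662): the 2 values lie on either side of the threshold and were not tested against each other. The Col4a2 call was lost in 9 of the 12 fits that left out 1 library, among them the fit without BDL replicate 1 and the fits without each MDR library, and with median-of-ratios scaling (0.78, adjusted p = 0.111). The gene models overlap by 22 bases at their starts, and whether counting used strand is not given in the sources used here.

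Col4a5 encodes a chain of the other type IV networks and stood at 0.662, 0.583 and 0.620 FPKM in BDL, 0.774, 0.451 and 1.04 in BDL_H, 1.45, 3.19 and 2.24 in MDR and 1.41, 2.26 and 1.63 in MDR_H. All 6 MDR and MDR_H libraries lay above all 6 ligation libraries. Its difference between MDR and BDL was 0.99 ± 0.20 (limma, adjusted p = 0.0094), and it was called with each of the 12 libraries left out in turn and under median-of-ratios scaling.

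Type VI collagen is assembled from Col6a1, Col6a2 and 1 of the longer chains Col6a3 to Col6a6. Col6a1 stood at 3.30, 4.36 and 5.11 FPKM in BDL, 6.25, 4.75 and 12.0 in BDL_H, 7.28, 14.1 and 10.4 in MDR and 6.55, 13.0 and 8.02 in MDR_H. Col6a2 stood at 2.02, 2.44 and 2.75 in BDL, 3.45, 2.57 and 7.23 in BDL_H, 3.84, 7.43 and 6.04 in MDR and 3.68, 5.92 and 4.39 in MDR_H. In the 2 genes, which are neighbours on chromosome 10, BDL_H replicate 3 lay within the range of the MDR libraries. Both passed limma's test between MDR and BDL, at 1.11 ± 0.32 (adjusted p = 0.0409) and 0.96 ± 0.29 (adjusted p = 0.0468), and neither did so with median-of-ratios scaling. With 1 library left out, Col6a1 was called in 6 of the 12 fits and Col6a2 in 3. Both calls were lost without BDL replicate 1, among others.

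Col6a3, the usual partner of these 2 chains, stood at 0.871, 2.15 and 2.86 FPKM in BDL, 4.05, 2.05 and 5.05 in BDL_H, 5.96, 9.80 and 8.10 in MDR and 3.68, 8.10 and 5.51 in MDR_H. Every MDR library lay above all 6 ligation libraries. Its MDR difference was 1.64 ± 0.33 (limma, adjusted p = 0.0106), lost only without MDR replicate 2 among the 12 libraries left out in turn.

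Col6a5 had the largest ratio of group means among the 18 genes, from a low level. It stood at 0.102, 0.131 and 0.0686 FPKM in BDL, 0.282, 0.185 and 0.268 in BDL_H, 1.17, 2.05 and 1.27 in MDR and 0.657, 1.69 and 1.23 in MDR_H. These are 38, 50 and 25 reads in BDL against 392, 729 and 449 in MDR. The mean was 0.101 ± 0.031 FPKM in BDL and 1.496 ± 0.484 in MDR (SD, n = 3), a ratio of 14.8. Both model comparisons called it, with 1.16 ± 0.18 between MDR and BDL (limma, adjusted p = 0.00348) and 0.79 ± 0.18 between MDR_H and BDL_H (adjusted p = 0.0263). The second call was lost in 5 of the 12 fits that left out 1 library: without any 1 of the BDL_H libraries, without MDR_H replicate 2 and without MDR_H replicate 3. No ligation library reached 1 FPKM in this gene, so it passed the filter only through the MDR and MDR_H libraries. On this scale a pseudocount of 1 understates the change of so low a gene. Its neighbours on chromosome 9, Col6a6 and Col6a4, lie 27.9 and 28.8 kb away; Col6a6 is described with the genes under the filter and Col6a4 had fewer than 10 reads in every library.

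Of the fibril-associated genes, Col14a1, whose product binds type I fibrils, stood at 0.883, 3.53 and 4.37 FPKM in BDL, 5.07, 4.90 and 6.89 in BDL_H, 13.3, 17.5 and 15.8 in MDR and 8.93, 15.1 and 14.8 in MDR_H. All 6 MDR and MDR_H libraries lay above all 6 ligation libraries. Its difference between MDR and BDL was 2.20 ± 0.34 (limma, adjusted p = 0.00354), the largest on this scale among the 18 genes. Leaving out BDL replicate 1 left it called, and no other single library ended the call either.

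Col16a1, of the same class, stood at 0.233, 0.634 and 0.546 FPKM in BDL, 0.512, 0.478 and 0.818 in BDL_H, 1.02, 2.47 and 1.99 in MDR and 0.952, 1.58 and 1.60 in MDR_H. The 2 models did not overlap in this gene either, and MDR was above BDL by 0.92 ± 0.21 (limma, adjusted p = 0.0155). Col15a1, a basement membrane multiplexin like Col18a1, stood at 0.897, 2.54 and 3.02 in BDL, 2.66, 1.799 and 3.06 in BDL_H, 4.72, 7.48 and 6.84 in MDR and 2.83, 6.31 and 4.68 in MDR_H. MDR was above BDL in every library, by 1.27 ± 0.30 (limma, adjusted p = 0.0199). Without MDR replicate 2 or MDR replicate 3, neither Col16a1 nor Col15a1 was called. Col13a1, a transmembrane collagen, lay between 0.293 and 1.85 FPKM and did not pass (0.59 ± 0.21, adjusted p = 0.0755).

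The number of collagen calls between MDR and BDL depended on single libraries. It was 3 without MDR replicate 2 (4.46% of all genes tested called), 4 without MDR replicate 3 (6.30%), 6 without BDL replicate 1 (10.7%) or BDL replicate 2 (8.01%), 7 without BDL_H replicate 1 (13.2%) or MDR_H replicate 3 (12.2%), and 11 without MDR replicate 1 (12.6%). Without MDR replicate 1 the Y-linked sum follows the model fully, so that fit does not separate the 2. Over all libraries the share was 16.2%, so the count over all genes fell in the same fits. Col6a5, Col14a1 and Col4a5 were called in all 12 fits that left out 1 library, and of these Col6a5 and Col4a5 passed the filter through the MDR and MDR_H libraries.

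The models were also compared with HDCA in both. Between MDR_H and BDL_H 1 of the 18, Col6a5, passed the test, beside 7.36% of all genes tested that were called higher. It is a gene that passed the filter through the MDR and MDR_H libraries alone, and of the 14 genes that passed in each model none was called, beside 6.12% of 9898 such genes. The median difference was 0.23 for the collagen genes and 0.20 over all genes. A positive difference was found in 14 of the 18, and in 9 of 18 with median-of-ratios scaling. Col14a1 (1.05 ± 0.34, adjusted p = 0.0753) and Col4a5 (0.66 ± 0.20, adjusted p = 0.0609) missed the threshold in limma though their groups did not overlap, and Col1a1 had a negative difference (−0.33 ± 0.43, adjusted p = 0.64). Groups did not overlap, MDR_H above BDL_H, in 4 of 18, against 32.4% of the genes tested, and in 9 of all 43 against 28.3% of the table.

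Averaged over HDCA status, 9 of the 18 genes were higher in the MDR model than in the BDL model, against 32.6% of genes tested. Of the 14 genes that passed the filter in each model, 6 were called, beside 30.1% of such genes. Col6a5 (0.98 ± 0.13, adjusted p = 0.000497), Col14a1 (1.63 ± 0.24, adjusted p = 0.000876), Col4a5 (0.82 ± 0.14, adjusted p = 0.00178), Col16a1, Col6a3 and Col15a1 were called by limma in every fit that left out 1 library and under median-of-ratios scaling. Of these, Col6a5, Col4a5 and Col16a1 passed the filter through the MDR and MDR_H libraries. Their calls, and their separation of the models given below, are partly built into that. Col3a1, Col5a2 and Col6a1 were called as well. Col1a1 was not (0.26 ± 0.30, adjusted p = 0.516), and its difference was −0.05 with median-of-ratios scaling, under which Col18a1 and Col5a3 also turned negative. That scaling moved the split of calls over all genes from 3524 higher and 326 lower to 1186 and 1488, and the collagen calls from 9 to 7. All 6 libraries of the MDR model lay above all 6 of the BDL model in 4 of the 18 genes (19.4% of genes tested) and in 8 of the 43 (15.9% of the table): Col4a5, Col6a5, Col14a1 and Col16a1, and the low genes Col4a3, Col4a6, Col8a1 and Col23a1.

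**Figure D3:**
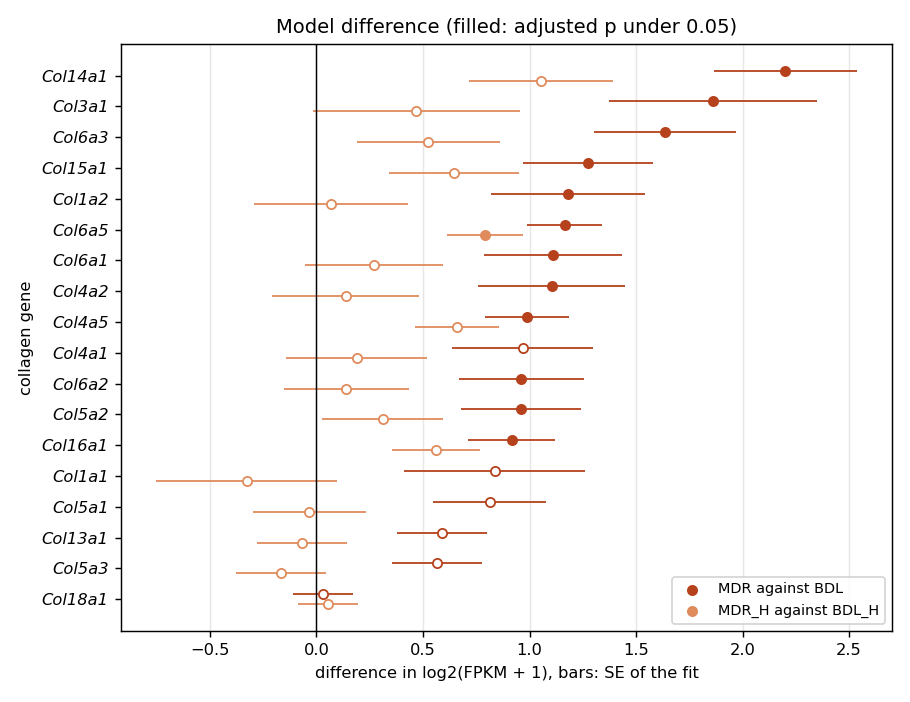
Difference between the models for the 18 tested collagen genes, without HDCA (MDR against BDL) and with it (MDR_H against BDL_H), as log2(FPKM + 1) with the SE of the fit; filled points have an adjusted p under 0.05. Without HDCA 12 points are filled and 1, Col6a5, with it; Col18a1 lies at 0.03 without HDCA, and at −0.34 with median-of-ratios scaling.

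Ratios between chains within a library do not depend on how libraries are scaled, and 4 pairs were compared. The type III to type I ratio, Col3a1 to Col1a1, was 0.758, 1.73 and 1.92 in BDL, 1.99, 1.63 and 1.52 in BDL_H, 3.23, 2.83 and 2.47 in MDR and 3.46, 2.86 and 2.81 in MDR_H. The 6 ligation libraries lay between 0.758 and 1.99 and the 6 MDR and MDR_H libraries between 2.47 and 3.46, with no overlap. The mean was 1.59 ± 0.45 against 2.94 ± 0.35 (SD, n = 6), a difference of 0.94 in log2 ratio (exact permutation test within HDCA status, two-sided, p = 0.005, the smallest its 400 arrangements can give; adjusted p = 0.02 over 8 tests).

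Type I collagen joins α1 and α2 chains in one helix. The Col1a2 to Col1a1 ratio was 0.822, 0.840 and 0.818 in BDL, 0.885, 0.984 and 0.801 in BDL_H, 1.09, 1.10 and 1.04 in MDR and 1.37, 1.03 and 1.18 in MDR_H. The models did not overlap in this ratio either. Its mean was 0.858 ± 0.068 in the BDL model and 1.13 ± 0.13 in the MDR model (SD, n = 6), 0.40 apart in log2 ratio (exact permutation test, p = 0.005, adjusted p = 0.02).

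The ratio of Col6a3 to Col6a1 was 0.470 ± 0.132 in the BDL model and 0.695 ± 0.095 in the MDR model (SD, n = 6), with overlap between 0.562 and 0.648. It differed by 0.61 in log2 ratio (exact permutation test, p = 0.015, adjusted p = 0.04), and no longer passed in 7 of the 12 fits that left out 1 library: without BDL replicate 1 (0.44), BDL_H replicate 2 or 3, any 1 of the MDR libraries or MDR_H replicate 3 (adjusted p up to 0.107). For Col4a2 to Col4a1 the ratio was 0.578 ± 0.064 and 0.607 ± 0.047, and the difference of 0.08 did not pass the test (exact permutation, p = 0.46). With HDCA against without, none of the 4 ratios passed; the differences were 0.12 for Col1a2 to Col1a1, 0.21 for Col3a1 to Col1a1, 0.05 for Col4a2 to Col4a1 and −0.03 for Col6a3 to Col6a1, and the last 2 changed sign when single libraries were left out.

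**Figure D4:**
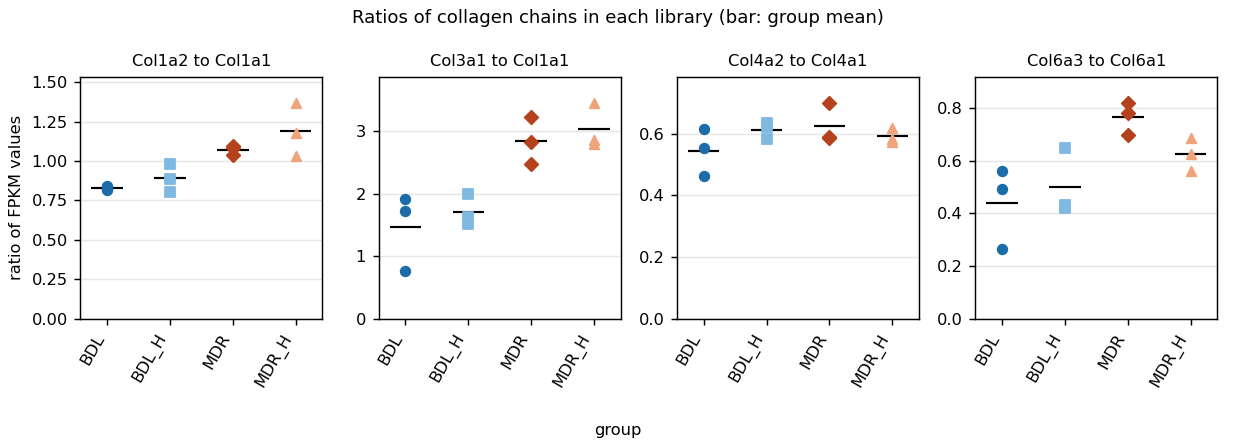
Ratio of FPKM values of 2 collagen chains in each library, by group; points are libraries and bars are group means (n = 3). In the panels for Col1a2 to Col1a1 and Col3a1 to Col1a1 all MDR and MDR_H libraries lie above all BDL and BDL_H libraries, while the Col4a2 to Col4a1 values lie between 0.462 and 0.699 in all groups.

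In the ligation model no gene of the whole table was called between BDL_H and BDL (0 of 10805 by limma, 0%, with 243 at an unadjusted p under 0.05; 0 by limma-voom, with 334; 1 with array weights), and no collagen gene was. The 18 collagen genes had a median difference of 0.51 between BDL_H and BDL, beside 0.03 over all genes tested, and 17 of the 18 were positive, with Col18a1 at −0.08. Col3a1 differed by 1.03 ± 0.49, Col14a1 by 0.87 ± 0.34, Col1a2 by 0.81 ± 0.36 and Col1a1 by 0.72 ± 0.43. At an unadjusted p under 0.05 there were 2 of the 18, Col14a1 and Col1a2, in limma and 5 in limma-voom. Groups did not overlap, BDL_H above BDL, in Col14a1, Col1a2 and Col6a5, which are 3 of 18 against 3.43% of genes tested.

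These values rest on a few libraries. BDL replicate 1 was the lowest of the 6 ligation libraries in 15 of the 18 collagen genes and BDL_H replicate 3 the highest in 15, where they were so for 46.4% and 27.1% of all genes tested. Without BDL replicate 1 the median difference was 0.30, and without BDL_H replicate 3 it was also 0.30. All 11 stellate cell markers had a positive difference (70.9 to 87.3 FPKM summed in BDL_H, 34.1 to 76.5 in BDL), as did all 12 of endothelium (148 to 172 against 37.9 to 168), all 4 tested of smooth muscle and myofibroblasts (16.7 to 49.0 against 5.74 to 20.1, over 8 genes) and 6 of 8 of portal fibroblasts and mesothelium (16.4 to 24.9 against 8.56 to 20.4, over 10 genes), with none called. In the smooth muscle and myofibroblast sum BDL_H replicate 3 was at 49.0 and BDL replicate 1 at 5.74. Their part in the collagen differences was not tested.

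In the MDR model the collagen genes lay on the other side. None was called between MDR_H and MDR (0 of 10805 genes by limma, 0%, 61 at an unadjusted p under 0.05; 0 by limma-voom, with 73), and none of the 18 had an unadjusted p under 0.05 by either tool. All 18 differences were negative, with a median of −0.30 beside −0.04 over all genes. Col1a1 was at −0.44 ± 0.43, Col6a3 at −0.43 ± 0.33, Col15a1 at −0.42 ± 0.30 and Col5a3 at −0.35 ± 0.21. Col5a3 was the gene whose groups did not overlap, at 4.26, 2.97 and 3.18 FPKM in MDR and 2.30, 2.61 and 2.50 in MDR_H; 4.60% of genes tested showed this.

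MDR_H replicate 1 was the lowest of the 6 libraries in 18 of 18 genes (18.6% of all genes tested), and MDR replicate 2 the highest in 15 (33.9%). Without MDR_H replicate 1 the median difference was −0.09, with Col18a1 turning positive, and without MDR replicate 2 it was −0.17, with Col6a1 turning positive. It was −0.47 without MDR_H replicate 2 and −0.46 without MDR replicate 1. In the fit without MDR replicate 1, 2 of the 18 had an unadjusted p under 0.05, beside 0.881% of all genes tested. Of the 6 libraries, MDR replicate 1 is the one with Y-linked reads, so the 2 groups also differ in this. Same-numbered libraries of MDR and MDR_H deviated together (correlations over genes of 0.438, 0.312 and 0.548), and the treated library was the lower of its pair in 18, 17 and 17 of the 18 genes in pairs 1, 2 and 3, with medians of −0.39, −0.18 and −0.34. Over all genes tested the lower shares were 42.8%, 68.9% and 67.5%. With the replicate number as a block in a fit of these 6 libraries, 10 of the 18 had an unadjusted p under 0.05, beside 399 of 10655 genes (3.74%). None of the 18 was called, and 1 gene of the table was. The pairing was taken from correlations in these same data, so it is no independent ground for the block. In the ligation groups BDL replicate 1 and BDL_H replicate 2 correlated at 0.548, and same-numbered libraries at −0.43, −0.382 and 0.431. The Y-linked sum was 20.1 FPKM in MDR replicate 1 and 0.0160 in MDR_H replicate 1, which form pair 1. Cholangiocyte markers summed to 350 to 545 FPKM in MDR and 284 to 398 in MDR_H, stellate cell markers to 145 to 203 and 159 to 201. Portal fibroblast and mesothelial markers summed to 34.2 to 62.1 and 32.5 to 49.0, over 10 genes. All 8 tested of that list were lower in MDR_H, while of the 11 stellate cell markers 5 were higher and 6 lower, with none called. The part of these cells was not tested.

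**Figure D5:**
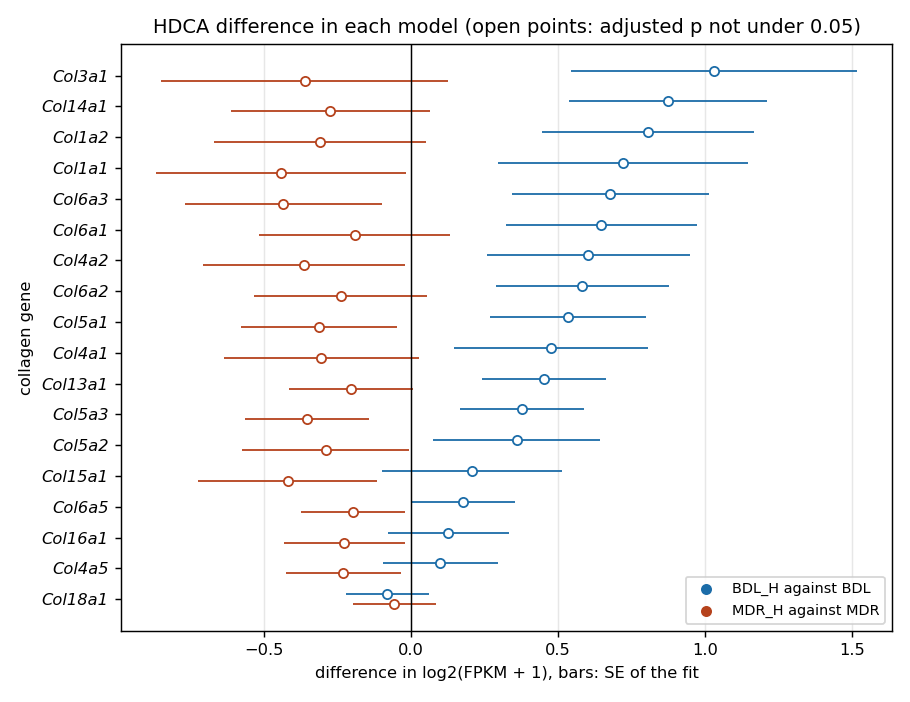
Difference with HDCA for the 18 tested collagen genes in the ligation model (BDL_H against BDL) and in the MDR model (MDR_H against MDR), as log2(FPKM + 1) with the SE of the fit; all points are open because no adjusted p was under 0.05. Points of the ligation model lie from −0.08 (Col18a1) to 1.03 (Col3a1) and those of the MDR model below 0, where Col18a1 and Col6a1 turn positive when 1 library is left out.

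The difference between the 2 HDCA contrasts was tested directly, as an interaction, and no gene of the table passed it (0 of 10805 by limma, 0%, 200 at an unadjusted p under 0.05; 0 by limma-voom, with 312). Among collagen genes, Col5a3 (−0.73 ± 0.30), Col14a1 (−1.15 ± 0.48), Col6a3 (−1.11 ± 0.47), Col5a1 (−0.85 ± 0.37) and Col13a1 (−0.66 ± 0.30) had an unadjusted p under 0.05, each with the difference between HDCA and no HDCA lower in the MDR model than in the ligation model. The 18 genes had a median of −0.80, beside −0.07 over all genes. Without MDR_H replicate 1 none of the 18 had an unadjusted p under 0.05 and the median was −0.65. The HDCA courses differ, at 4 days in the one model and 21 in the other, and cannot be told apart from the models.

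Below the filter, the 25 other genes reached at most 1.61 FPKM, in Col6a6. Under 0.5 FPKM in every library were 20 of them, and Col2a1, Col6a4, Col9a1, Col9a2, Col10a1 and Col17a1 were listed at 0 in most libraries. Of the 25, 10 had every MDR library above every BDL library, 1 (Col11a1) had every MDR library below, and 14 overlapped. Every MDR library lay above in 34.4% of all 16970 genes and in 39.2% of the 10805 tested. The share over genes under the filter alone is not given, so the 10 are not set against a background of their own. They include Col17a1, with 0, 0 and 0 reads in BDL and 1, 7 and 1 in MDR, too few to compare. Col11a1 had 6, 8 and 5 reads in BDL and 0, 0 and 1 in MDR. Col8a1, a short-chain collagen of vessel walls, had 1, 25 and 36 reads in BDL, 49, 31 and 46 in BDL_H, 104, 250 and 150 in MDR and 101, 172 and 118 in MDR_H. Col6a6 had 7, 38 and 25 reads in BDL and 163, 451 and 195 in MDR. Col4a3 and Col4a4, whose start sites face away from each other 72 bases apart on chromosome 1, had 5, 1 and 22 and 7, 8 and 40 reads in BDL against 49, 158 and 89 and 62, 143 and 142 in MDR. In Col8a1, Col6a6, Col4a3 and Col4a4 every MDR library lay above every BDL library.

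An analysis of the recovered reads (limma-voom with TMM scaling, genes with a mean of at least 10 reads), chosen after the data were seen, tested 32 collagen genes. It called 13 higher in MDR than in BDL, beside 6.35% of 13616 genes. Of these, 7 had also passed the FPKM filter: Col6a5, Col14a1, Col4a5, Col6a3, Col16a1, Col15a1 and Col3a1. The other 6 were Col4a3 (3.73 ± 0.93, log2 of reads, adjusted p = 0.0292), Col8a1 (3.43 ± 0.78, adjusted p = 0.0209), Col6a6 (3.34 ± 0.94, adjusted p = 0.0434), Col23a1 (3.07 ± 0.69, adjusted p = 0.02), Col4a4 (2.70 ± 0.68, adjusted p = 0.0301) and Col4a6 (2.54 ± 0.68, adjusted p = 0.0373). With HDCA against without it called no collagen gene in either model (0%). Col6a5 was its 1 call between MDR_H and BDL_H, beside 2.42% of genes. Over both HDCA states it called 14, beside 14.0%, the same 13 and Col28a1. Col28a1 had 0, 0 and 10 reads in BDL, 5, 1 and 0 in BDL_H, 3, 64 and 26 in MDR and 21, 27 and 22 in MDR_H, so it passed the minimum of 10 reads through the MDR and MDR_H libraries and its call is partly built into that.

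The genes that make, cut, link and bind collagen were listed by role, and in none of the lists did a gene pass the test with HDCA in either model. Between MDR and BDL, calls were all towards MDR, where 15.1% of all genes tested were called higher. The role-list calls are given for FPKM scaling alone, and median-of-ratios scaling moved the split of all calls as described above. Among the called genes named here, P3h2, Loxl3, Ddr2 and Ctsk were under 1 FPKM in every ligation library. P3h4, Mrc2 and Tgfb3 reached it in fewer than 3. Their calls are partly built into their passing the filter. In hydroxylation of prolines and lysines, 3 of 12 tested genes were higher, all from the prolyl 3-hydroxylase group: P3h2 (0.400 ± 0.120 to 1.47 ± 0.47 FPKM, SD, n = 3), P3h3 (0.919 ± 0.262 to 3.30 ± 1.41) and P3h4 (0.615 ± 0.270 to 2.25 ± 0.80). P4hb, the shared subunit of prolyl 4-hydroxylase, was at 649 ± 77 and 627 ± 25 FPKM and did not pass (−0.04 ± 0.12, limma, adjusted p = 0.81). In folding and export 2 of 9 were higher, Serpinh1, the collagen chaperone HSP47 (12.2 ± 6.4 to 39.6 ± 14.8), and Fkbp10, a prolyl isomerase (0.942 ± 0.343 to 3.01 ± 0.49).

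Against the same share of 15.1% of all genes, 2 of 4 genes of propeptide cleavage were higher: Adamts2, which removes the amino-terminal propeptide (1.16 ± 0.37 to 4.25 ± 0.87 FPKM), and Pcolce, which enhances removal of the carboxy-terminal one (7.91 ± 4.15 to 17.6 ± 2.9 FPKM). Of 5 lysyl oxidases Loxl1 (1.77 ± 0.47 to 7.47 ± 2.25) and Loxl3 were higher, while Lox (0.43 ± 0.18, adjusted p = 0.126) and Loxl2 (0.66 ± 0.27, adjusted p = 0.111) did not pass limma's test. Receptors and uptake genes were called in 4 of 6, Ddr1, Ddr2, Itga1 and Mrc2. The list of enzymes that cleave collagen and their inhibitors was called in 4 of 6, and these act in opposite directions: Mmp2 (1.91 ± 0.31 to 11.4 ± 5.1 FPKM) and Ctsk (0.647 ± 0.251 to 3.28 ± 1.26) degrade collagen, and Timp2 and Timp3 inhibit metalloproteinases. Of 13 TGF-beta and matrix regulators 6 were higher, with Tgfb3 (0.758 ± 0.011 to 3.86 ± 1.65), Pdgfrb and Tgfbr1 among them and Tgfb1 not (0.63 ± 0.40, adjusted p = 0.276). Acta2, the smooth muscle actin of myofibroblasts, was at 2.91 ± 1.98 FPKM in BDL and 3.35 ± 1.00 in MDR (adjusted p = 0.651) and at 8.15 ± 5.08 in BDL_H.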

How the data were processed

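The authors deposited 1 table of FPKM values, fragments per kilobase of gene model scaled to the sequencing depth, for 16970 genes in 12 libraries (4 groups of 3, from the sample titles). RNA was extracted with TRIzol and polyA libraries were built with the V6 kit of the VAHTS Universal series, per the labels' protocols. CASAVA 1.8, fastp, HISAT2 2.0.5, featureCounts 1.5.0-p3, DESeq2 1.20.0 and the build GRCm38 (mm10) are named, per the submitters' processing notes; the sources used here give neither their order, nor the annotation release, nor the use of strand, so overlapping genes may share reads.

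Genes with at least 1 FPKM in at least 3 libraries (10805) were tested as log2(FPKM + 1) with limma 3.58.1 (R 4.3.3), in one fit of 4 group means with a trend and 8 residual degrees of freedom; p-values are two-sided and Benjamini-Hochberg adjusted over all 10805, and genes under 0.05 were called. Fold changes on this scale understate those of low genes. FPKM is relative to a library's total, so a few very abundant genes can shift all others. Whole reads were recovered from the steps of the FPKM values for 16968 of 16970 genes (99.99%, within 0.02 of a read) and used as an alternative with limma-voom. Chain ratios were tested by exact permutation within strata, adjusted over 8 tests. Scripts were tested on simulated data. Same-numbered libraries of MDR and MDR_H were taken as pairs from their correlations (0.438, 0.312 and 0.548), since no label says what the number marks; the other groups' numbers were not. Gene positions are those of GENCODE M21 on GRCm38.

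The members, the role and marker lists, and the genes named (all called members, members with a mean of at least 5 FPKM, chains of the 4 ratios, and called genes of each list, at most 4) were chosen with earlier results of these data known.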

Additional observations from a re-analysis of the deposited data

How the results depend on the processing

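Each comparison was recomputed with another pseudocount, filter, scaling, tool, library weighting, replicate block and set of libraries. Between MDR and BDL the number of collagen genes called was 12, where 16.2% of genes tested were called. It fell to 7 with median-of-ratios scaling (10.4%) and with limma-voom (9.86%). It was also 7 without both BDL replicate 1 and BDL_H replicate 2, where the share over all genes rose to 20.7%. With only the 6 libraries compared it was 5 (6.45%). Leaving out 1 library gave 3 (without MDR replicate 2, 4.46%) to 14 (without BDL_H replicate 2, 21.7%). Between MDR_H and BDL_H the 1 call became 2 with no filter, 5 with array weights, 2 with the replicate block, 2 without both libraries and 0 with the replicate block in the 6 libraries alone (an alternative added after the data were seen); leaving out 1 library gave 0 to 2. Between the models there were 9 calls (35.6% of genes tested called). With no filter they became 16 of 43, 15 of them higher and 1 lower (28.8%). Array weights gave 15 (53.1%), and limma-voom on genes with a mean of at least 10 reads gave 14 of 32 (25.7%).

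The replicate block was set by number over all 4 groups, though only the MDR and MDR_H numbers are taken as pairs. With this block, collagen calls were 0 for HDCA in each model and 0 for the difference of the HDCA effects, each with 0% of genes tested called. They were 13 between MDR and BDL (12.5%) and 11 between the models (30.8%). No call between MDR_H and MDR changed.

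The log2 ratio of Col6a3 to Col6a1 between the models, 0.61, no longer passed with the replicate block (0.608, adjusted p = 0.0533 by the exact permutation test); it was 0.396 with both of those libraries left out and ran from 0.442 to 0.714 over the fits with 1 library left out. For HDCA the same ratio ran from −0.198 to 0.0742, that of Col4a2 to Col4a1 from −0.0036 to 0.1002 (−0.0094 with both libraries left out) and that of Col1a2 to Col1a1 from 0.0715 to 0.173, where it passed in the fit that left out MDR_H replicate 2.

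Some differences that had not passed changed sign. For BDL_H against BDL, array weights gave −0.0213 for Col16a1 and 0.0917 for Col18a1, both libraries left out gave 0.0908 for Col18a1, and with 1 library left out the ranges were −0.123 to 0.419 for Col15a1, −0.165 to 0.0739 for Col18a1 and −0.0151 to 0.231 for Col4a5. The value for Col4a5 with both libraries left out, 0.249, kept its sign. For MDR_H against MDR those ranges were −0.445 to 0.0205 for Col6a1 and −0.113 to 0.0387 for Col18a1. For MDR against BDL, Col18a1 turned to −0.337 with median-of-ratios scaling and −0.350 and −0.349 with limma-voom under its 2 filters, and ran from −0.0525 to 0.186 with 1 library left out. The cause was not tested in any of these. Genes with fewer than 10 reads in every library, 6 of the 43, are too shallow to compare.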
